A study of Mus musculus with 2 samples.

Results

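The mitochondrial genome transcripts of embryonic mouse limb are described here, chosen as all genes whose GENCODE M21 symbol begins with mt-, which gave 37 of the 55536 genes in the tables: 13 coding genes, 2 rRNA genes and 22 tRNA genes. Limbs were taken from B6NCrl embryos at embryonic day 12.5, with both sexes mixed, and make up a single group, sampled in 2 biological replicates. For replicate 2 the limbs of 68 embryos were combined and for replicate 1 those of 88 embryos, and no treatment or genetic change is named. An input of 10 ng of RNA per library was copied by oligo-dT priming, which captures polyadenylated RNA, with ERCC spike-in RNA added. The design allows a description of levels and a comparison of the 2 libraries, but no comparison of conditions. Each pool mixes embryos and all cell types of the limb.

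Mammalian mitochondrial DNA is a small circle whose strands are called heavy and light, after their density. Each strand is copied into a long transcript from which tRNAs are cut out, and the RNAs between them, mRNAs and rRNAs, are thereby released. Most of the mRNAs then receive a short poly(A) tail, which completes the stop codon where the gene itself ends within it. The 13 proteins made from them are subunits of respiratory chain complexes I, III and IV and of the ATP synthase, complex V. Nuclear genes supply all the other subunits and the enzymes that make and degrade mitochondrial RNA.

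Depth was 30118921 reads assigned to genes in replicate 2 and 29633457 in replicate 1, and spike-ins held 2.24% of all assigned reads in replicate 2 and 3.19% in replicate 1. All 7 limb markers checked were at 1 TPM or more in both libraries (TPM is the level of a transcript normalised for length and depth), between 32.9 for Tbx4 and 375 for Msx1, with Prrx1 next to Msx1 at 157. The labels call the replicates biological, with pools of 68 and 88 embryos, and give both the same strain record as donor. Biological and technical differences between the 2 libraries cannot be told apart.

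The sequences below show the features of the mitochondrial genome that bear on how its reads can be counted. All are from GENCODE M21 transcripts on mm10, written 5′ to 3′ on the strand of the gene. Of the 13 coding genes, 3 end with a single T of a stop codon, which is in capitals here.
mt-Co3, last 30 bases, chrM:9361-9390, plus strand: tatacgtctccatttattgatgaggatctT
mt-Nd4, last 30 bases, chrM:11515-11544, plus strand: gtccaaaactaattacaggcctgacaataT
mt-Cytb, last 30 bases, chrM:15259-15288, plus strand: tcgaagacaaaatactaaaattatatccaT
The other 10 end with a whole codon. In 8 of the 13, the next annotated gene is a tRNA gene.

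In 2 places a pair of reading frames on the same strand overlaps by more than a base, which is shown because counts of such genes can be hard to separate. The bases that belong to both genes are in capitals.
mt-Atp8 into mt-Atp6, chrM:7915-7981, plus strand: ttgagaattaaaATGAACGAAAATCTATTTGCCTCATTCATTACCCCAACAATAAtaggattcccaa
mt-Nd4l into mt-Nd4, chrM:10155-10185, plus strand: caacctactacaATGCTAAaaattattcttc
The overlaps are 43 and 7 nt long. The deposited effective length of each coding and rRNA gene is its length less 99 nt, so that a read was treated as a window of 100 nt, and no such window lies wholly within either overlap.

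Nuclear pseudogenes, copies of mitochondrial DNA that lie in the chromosomes, hold the same letters as the mitochondrial genes. A search of annotated genes outside the mitochondrial genome found 16 such copies at 90% identity or more, and 7 of them form a run on the minus strand of chromosome 1, at chr1:24611535-24616197 in mm10. They copy, in the order of the mitochondrial genome, mt-Co1, mt-Co2, mt-Atp6, mt-Co3, mt-Nd3, mt-Nd4l and mt-Nd4, at 99.7% to 100% identity over the aligned bases. For Gm29216, the copy of mt-Co1, only 483 of its 492 bases were aligned, while the 6 differences given below are over all 492. The copy of mt-Co3, Gm28437, has no mismatch and stops 1 base before the gene does.
Gm28437, last 29 bases, chr1:24613189-24613217, minus strand: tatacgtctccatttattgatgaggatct
The copy of mt-Nd3, Gm28438, differs at 1 base, T3C counted from the first base of mt-Nd3, with the gene's base given first. That base is in capitals here.
mt-Nd3, first 23 bases, chrM:9459-9481, plus strand: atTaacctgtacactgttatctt
Gm28438, first 23 bases, chr1:24613097-24613119, minus strand: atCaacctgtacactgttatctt

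The 9 other copies, on chromosomes 2, 4, 11, 13 and 18, are more diverged, at 90.7% to 97.6% identity. The stretch of mt-Co1 below is shown with its chromosome 1 copy, Gm29216, which begins at base 1054 of the gene, and with a copy of the whole gene on chromosome 2, Gm13340. Capitals mark bases that differ between mt-Co1 and either copy in the first line, and between that copy and mt-Co1 in the other lines.
mt-Co1, chrM:6381-6460, plus strand: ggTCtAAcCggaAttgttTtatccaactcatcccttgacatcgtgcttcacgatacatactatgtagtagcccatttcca
Gm29216, chr1:24616118-24616197, minus strand: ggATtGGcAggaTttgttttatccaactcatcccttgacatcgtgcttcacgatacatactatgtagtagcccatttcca
Gm13340, chr2:22588515-22588594, minus strand: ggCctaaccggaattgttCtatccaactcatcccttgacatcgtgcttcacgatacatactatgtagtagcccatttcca
Gm29216 holds all 6 of its differences in this stretch, and 380 of its 393 windows of 100 nt also occur in mt-Co1. In Gm13340, 37 differences are spread over 1545 bases, and only 80 of its 1446 windows occur in mt-Co1. A read from a shared window cannot be told apart from one of the other gene by its letters.

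In all, mitochondrial genes accounted for 1.07% of the reads on genes in replicate 2 and for 1.17% in replicate 1, a mean of 1.12% ± 0.0679 (SD, n = 2). The 2 libraries were thus close, with replicate 2 the lower. The nuclear copies held 114713 further reads in replicate 2 and 111042 in replicate 1. Reads of genes and copies together made up 1.45% in replicate 2 and 1.54% in replicate 1, and the copies' part of these was 26.2% in replicate 2 and 24.3% in replicate 1. Nearly all of it lay on the chromosome 1 run, since the 9 other copies held 22.4 reads in replicate 2 and 22.2 in replicate 1. In TPM, the mitochondrial genes summed to 2.09% of the total in replicate 2 and 2.24% in replicate 1. In pools of whole limbs, fewer cells rich in mitochondria and less mitochondrial RNA per cell cannot be told apart.

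By gene type, the coding genes held 67.8% of mitochondrial reads in replicate 2 and 71.2% in replicate 1, and the rRNA genes held the other 32.2% in replicate 2 and 28.8% in replicate 1. With the nuclear copies counted as mitochondrial, the rRNA share was 23.7% in replicate 2 and 21.8% in replicate 1. All 22 tRNA genes were listed at 0 in both libraries. They are 59.0 to 75.0 nt long and have an effective length of 0 in the tables, so a read of 100 nt cannot be assigned to them, and the labels give the library size range as over 200 nt. Their zeros are therefore no measurement of tRNA. A read count or level was thus given for 15 of the 37 genes.

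By strand, 28 of the 37 genes, among them 12 coding genes and both rRNA genes, have the heavy-strand class, whose transcripts read along the plus strand of the reference. The light-strand class holds 9 genes, mt-Nd6 and 8 tRNA genes, so that every light-strand read is a read of mt-Nd6. It had 3189 reads in replicate 2 and 3435 in replicate 1, which is 0.989% of mitochondrial reads in replicate 2 (95% Wilson interval 0.955% to 1.02%) and 0.994% in replicate 1 (0.961% to 1.03%). The intervals overlap and cover counting error only. The use of strand in counting was not given in the sources used here, so reads of mt-Nd6 and reads of heavy-strand RNA antisense to it cannot be told apart.

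The rRNAs, which form the RNA core of the mitochondrial ribosome, were unequal. The large-subunit rRNA, mt-Rnr2 (chrM:1094-2675), was at 2873 TPM in replicate 2 and 2886 TPM in replicate 1, or 2879.9 ± 9.07 (mean ± SD, n = 2). The small-subunit rRNA, mt-Rnr1 (chrM:70-1024), was at 1104 TPM in replicate 2 and 894 TPM in replicate 1, or 999 ± 148. Thus mt-Rnr2 was 2.60-fold above mt-Rnr1 in replicate 2 and 3.23-fold in replicate 1, and it held 81.8% of rRNA reads in replicate 2 and 84.8% in replicate 1. Neither gene has a nuclear copy in the set found here. These rRNAs are known to carry at most short additions of A, and their own longest runs of A, where an oligo-dT primer could also anneal, are given in capitals with 20 bases on either side.
mt-Rnr2, chrM:1468-1514, plus strand: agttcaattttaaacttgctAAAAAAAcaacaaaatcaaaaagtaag
mt-Rnr1, chrM:685-729, plus strand: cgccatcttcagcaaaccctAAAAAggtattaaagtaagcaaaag
Runs of 6 or more A occur in 6 of the 15 coding and rRNA genes. mt-Rnr2 has 4 such runs and mt-Rnr1 has 0. Among the coding genes, mt-Nd2 has 3, mt-Nd4 and mt-Nd5 have 2 each, and mt-Nd1 and mt-Co1 have 1 each. The other coding genes have 0, among them mt-Atp6, mt-Atp8, mt-Co2 and mt-Co3. Whether such runs bear on the levels was not tested.

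The ATP synthase genes were the highest of the coding genes as deposited. mt-Atp6, which encodes the subunit that carries protons through the membrane part of the enzyme, was at 4769.7 TPM in replicate 2 and 5247 TPM in replicate 1, and was the most abundant of the 15 in both by deposited TPM. mt-Atp8, a small accessory subunit read from the same mRNA, was at 4003 TPM in replicate 2 and 3909 TPM in replicate 1. mt-Atp8 has no window shared with an annotated nuclear copy. On chromosome 1 Gm10925 ends at base 24614651 and Gm28661, the copy of mt-Co2, starts at base 24614885. The stretch between them was not searched for an unannotated copy of mt-Atp8. mt-Atp6 shares 579 of its 582 windows with Gm10925, which was given 425 TPM in replicate 2 and 191 TPM in replicate 1. With the reads of gene and copy pooled over the length of the mitochondrial gene (called pooled TPM below), mt-Atp6 was at 5193 TPM in replicate 2 and 5437 TPM in replicate 1. The ratio of mt-Atp6 over mt-Atp8 was then 1.30 in replicate 2 and 1.39 in replicate 1.

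The complex IV genes, which encode the core of cytochrome c oxidase, all have a copy in the chromosome 1 run. mt-Co3, as deposited, was at 737 TPM in replicate 2 and 936 TPM in replicate 1, and the ninth of the 15 by its mean. Its copy Gm28437 was given 67929 reads in replicate 2 and 68256 in replicate 1, and mt-Co3 10060.2 in replicate 2 and 12659 in replicate 1, so that 87.1% of their joint reads in replicate 2 and 84.4% in replicate 1 lay on the copy. Of the 685 windows of mt-Co3, 684 are in Gm28437, and only the last, which ends in the T shown in capitals above, is not. Pooled, mt-Co3 was at 5710.1 TPM in replicate 2 and 5984 TPM in replicate 1, the highest of the 15 in both libraries.

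mt-Co2 was at 1159.9 TPM in replicate 2 and 1501 TPM in replicate 1, with 582 of its 585 windows shared. Its copy Gm28661 was given 58.3% of their joint reads in replicate 2 and 48.8% in replicate 1, and pooled TPM of mt-Co2 was 2782 in replicate 2 and 2931 in replicate 1. mt-Co1, which shares 446 of its 1446 windows, was at 1145 TPM in replicate 2 and 1324 TPM in replicate 1. Its copy Gm29216 had 33.6% of the joint reads in replicate 2 and 31.8% in replicate 1, and pooled TPM of mt-Co1 was 1724 in replicate 2 and 1941 in replicate 1. Pooled levels of the 3 genes thus ran in the order mt-Co3, mt-Co2, mt-Co1 in both libraries, and deposited levels did not have that order in either. Where the copies' own TPM was added instead, the shorter length of Gm29216 raised mt-Co1 to 3276 TPM in replicate 2 and 3593 TPM in replicate 1, above mt-Co2 at 2791 TPM in replicate 2 and 2938 TPM in replicate 1.

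mt-Cytb, the only mitochondrially encoded subunit of complex III, was at 1375 TPM in replicate 2 and 1694 TPM in replicate 1. None of its windows is shared with an annotated copy.

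The 7 complex I genes, which encode the proton-pumping membrane part of NADH dehydrogenase, spanned the widest range. As deposited, mt-Nd1 was the highest of them, at 1551 TPM in replicate 2 and 1688 TPM in replicate 1, followed by mt-Nd4, at 726 TPM in replicate 2 and 830.4 TPM in replicate 1. In pooled TPM, given below, mt-Nd3 lay between mt-Nd1 and mt-Nd4. mt-Nd2 was at 482 TPM in replicate 2 and 506 TPM in replicate 1. The light-strand gene mt-Nd6 was at 381 TPM in replicate 2 and 414 TPM in replicate 1. Its level lay above that of its heavy-strand neighbour mt-Nd5, which was at 316 TPM in replicate 2 and 332 TPM in replicate 1.

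For the shortest of these genes, most of the joint reads were assigned to the copy. mt-Nd3 was at 265 TPM in replicate 2 and 224 TPM in replicate 1, with 79.2% of the joint reads on Gm28438 in replicate 2 and 82.3% in replicate 1. mt-Nd4l was at 41.5 TPM in replicate 2 and 44.5 TPM in replicate 1, the lowest of the 15 as deposited, with 88.4% of the joint reads on Gm10222 in replicate 2 and 88.6% in replicate 1. Pooled TPM of mt-Nd3 was 1273 in replicate 2 and 1269 in replicate 1, and that of mt-Nd4l was 357 in replicate 2 and 389 in replicate 1. mt-Nd4 was treated otherwise: 777 of its 1279 windows are shared with Gm28439, yet that copy was given 0 reads in both libraries.

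**Figure D1:**
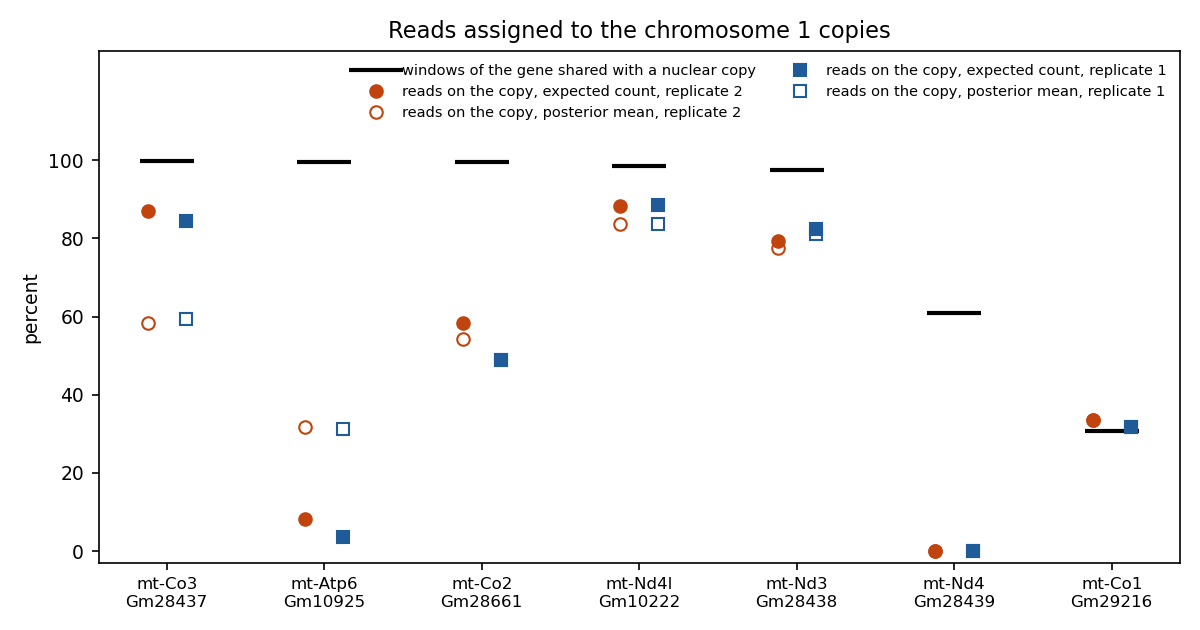
For the 7 mitochondrial genes with a copy in the chromosome 1 run, the black bar gives the percent of the gene's 100-nt windows found in a nuclear copy, and symbols give the percent of joint reads assigned to that copy in each library, filled for expected counts and open for posterior means. mt-Co3 and mt-Atp6 share nearly all windows (684 of 685 and 579 of 582), yet their copies were given 87.1% and 8.15% of the reads in replicate 2.

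The deposited tables hold a second estimate for each gene, the posterior mean, which averages over the ways in which shared reads can be divided. By it, Gm28437 had 58.4% of the reads shared with mt-Co3 in replicate 2 and 59.4% in replicate 1, and mt-Co3 itself was at 2295 TPM in replicate 2 (deposited interval 1753 to 2906) and 2349 TPM in replicate 1 (1786 to 2832). The deposited TPM of mt-Co3 given above lay below these intervals in both libraries. That of mt-Atp6 lay above them, since its posterior mean was 3421 TPM in replicate 2 (2904 to 3861) and 3621 TPM in replicate 1 (3331 to 3935). By this estimate mt-Atp8, at 3869 TPM in replicate 2 (3786 to 3951) and 3776 TPM in replicate 1 (3694 to 3858), had the highest value of the 15. Its intervals overlapped those of mt-Atp6 in both libraries, so the order of these 2 genes was not resolved. Posterior means of genes without copies were also somewhat below deposited TPM, as for mt-Rnr2 at 2777 TPM in replicate 2 and 2788 TPM in replicate 1. Gm10925 had 31.8% of the joint reads with mt-Atp6 in replicate 2 and 31.1% in replicate 1, against 8.15% in replicate 2 and 3.49% in replicate 1 by the expected counts. The sum of gene and copy did not depend on the estimate, at 77989 reads for mt-Co3 and Gm28437 in replicate 2 and 80915 in replicate 1 by either. For the 7 genes without shared windows, the deposited posterior SD was 0.

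**Figure D2:**
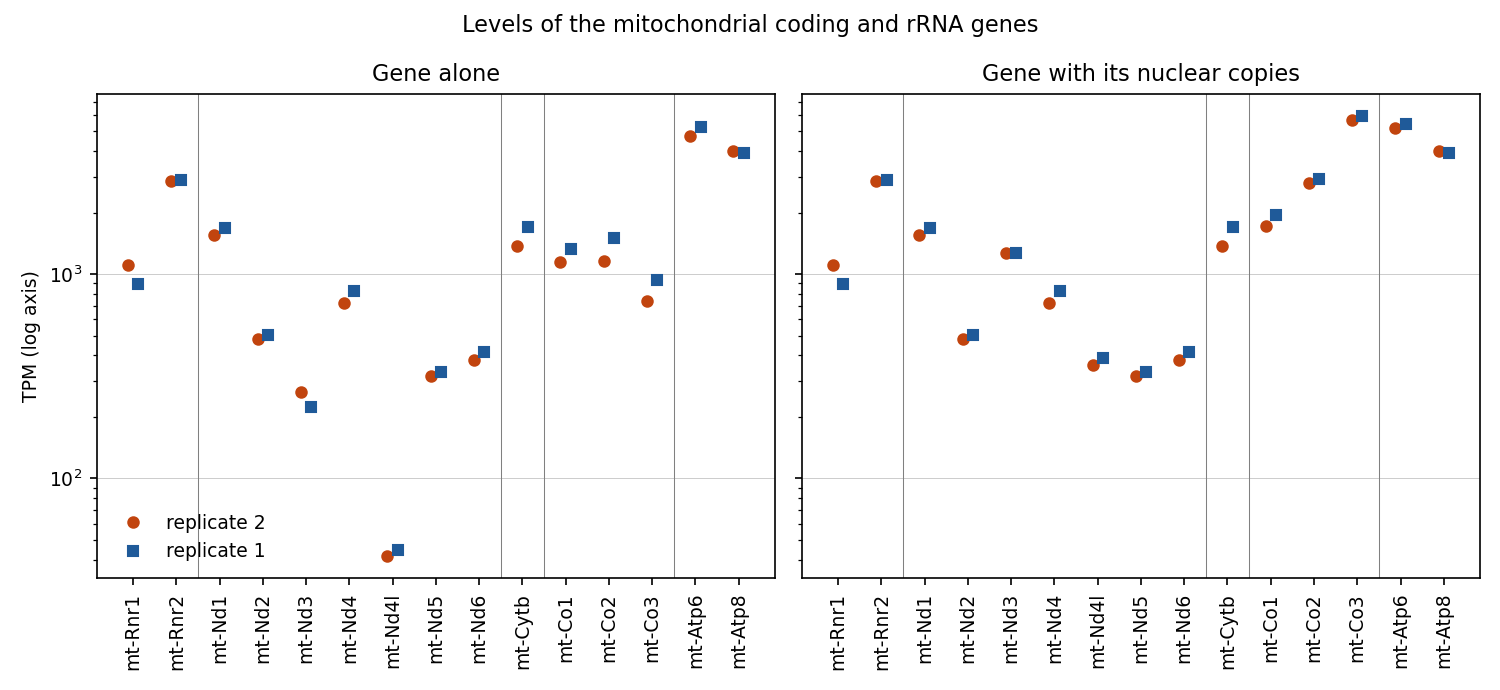
Level in TPM (log axis) of the 15 coding and rRNA genes in replicate 2 (circles) and replicate 1 (squares), as deposited on the left and pooled with nuclear copies on the right, grouped as rRNA, complex I, III, IV and V genes. mt-Co3 is at 737 TPM alone and 5710.1 TPM pooled in replicate 2, and at 936 TPM alone and 5984 TPM pooled in replicate 1.

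In the order of deposited mean levels, mt-Atp6 (5008 ± 338 TPM, SD, n = 2) was followed by mt-Atp8 (3956 ± 66.6), mt-Rnr2, mt-Nd1 (1619.9 ± 96.7), mt-Cytb (1535 ± 226), mt-Co2 (1331 ± 241), mt-Co1 (1235 ± 126), mt-Rnr1, mt-Co3 (836 ± 141), mt-Nd4 (778 ± 73.7), mt-Nd2 (494 ± 16.9), mt-Nd6 (398 ± 23.7), mt-Nd5 (324 ± 11.1), mt-Nd3 (244 ± 28.4) and mt-Nd4l (43.0 ± 2.09). Of the 14 pairs of neighbours in this order, 5 overlapped between libraries, namely mt-Nd1 with mt-Cytb, mt-Cytb with mt-Co2, mt-Co2 with mt-Co1, mt-Rnr1 with mt-Co3 and mt-Co3 with mt-Nd4. In the pooled order, led by mt-Co3 (5847 ± 194), mt-Atp6 (5315 ± 173), mt-Atp8, mt-Rnr2 and mt-Co2 (2857 ± 105), 3 of 14 pairs overlapped, namely mt-Rnr2 with mt-Co2, mt-Nd1 with mt-Cytb, and mt-Nd6 with mt-Nd4l. No gene kept its place between both orders. The highest coding gene was 115-fold above the lowest in replicate 2 and 118-fold in replicate 1 as deposited, and 18.1-fold in replicate 2 and 18.0-fold in replicate 1 when pooled.

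Along the genome, pooling changed the ratios of neighbouring genes, and it did not make all neighbours alike. mt-Co3 over mt-Atp6, whose genes overlap by 1 nt, was 1.10 in both libraries when pooled, against 0.154 in replicate 2 and 0.178 in replicate 1 as deposited. mt-Nd4 over mt-Nd4l, which share an mRNA, was 2.04 in replicate 2 and 2.14 in replicate 1 when pooled, and 17.5 in replicate 2 and 18.7 in replicate 1 as deposited. On the scale of pooled reads per 100-nt window, the mean over libraries was 36.3 for mt-Co1, 56.7 for mt-Co2, 78.5 for mt-Atp8, 105 for mt-Atp6 and 116 for mt-Co3, higher at each next gene, and then 25.2 for mt-Nd3 and 7.39 for mt-Nd4l. Further along it was 15.4 for mt-Nd4, 6.43 for mt-Nd5 and 30.4 for mt-Cytb.

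**Figure D3:**
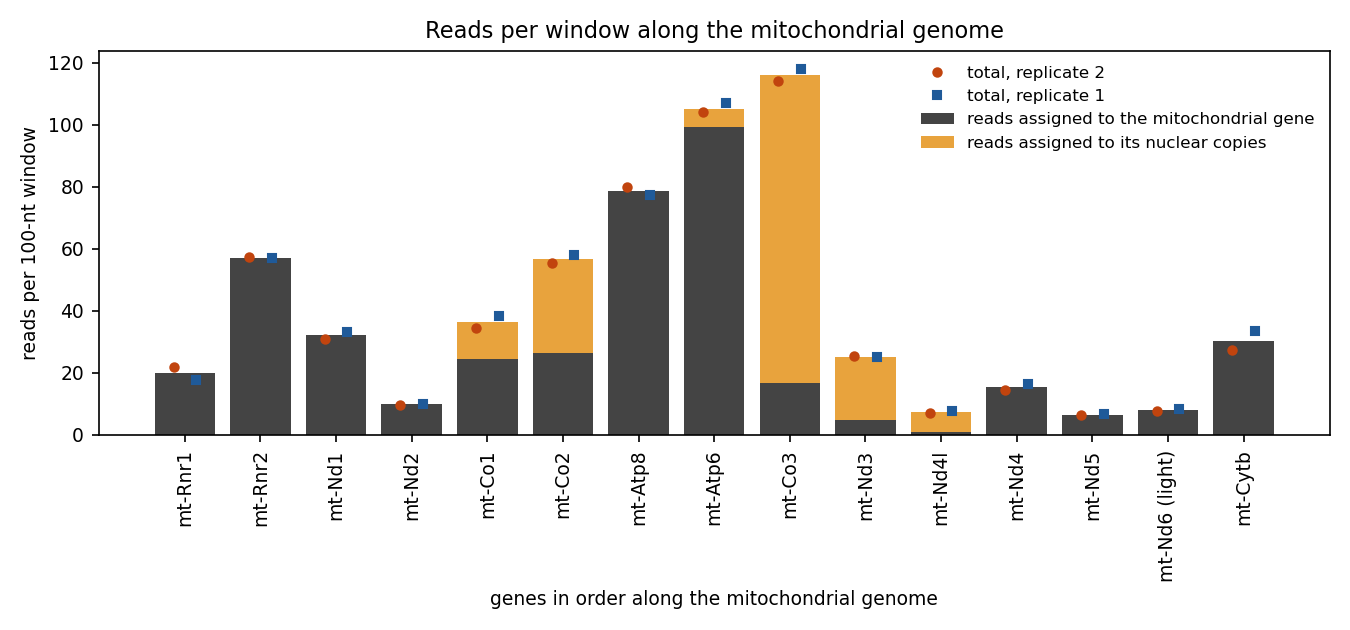
Mean reads per 100-nt window over both libraries, as bars in the order of genes along the mitochondrial genome, split into reads assigned to the mitochondrial gene (dark) and to its nuclear copies (orange), with the total of each library as a symbol. Totals are highest from mt-Atp8 to mt-Co3 (78.5 to 116) and lowest at mt-Nd5 (6.43), and most of the mt-Co3 bar is assigned to the copy.

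Replicates were compared gene by gene, as the ratio of replicate 2 over replicate 1, with an exact two-sided binomial test on expected counts over the 15926 genes whose mean reached 1 TPM. At an adjusted p under 0.05 and 1.5-fold or more in TPM, 431 genes differed (2.71%), and 0 of the 15 mitochondrial genes did. Without the fold minimum 19.2% of all genes differed, and 12 of the 15 did, 2 of them higher in replicate 2 (8.96% of all genes were) and 10 lower (10.3% of all genes were). With so many reads, small ratios pass this test, which covers counting error only and compares 2 libraries. It takes the division of shared reads between gene and copy as given, so the uncertainty of that division is left out. The median log2 ratio was -0.12 over the 15 genes and 0.01 over all genes tested, and the median absolute log2 ratio was 0.14 over the 15 and 0.12 over all. Among the 1748 genes whose mean reached 100 TPM, the median absolute log2 ratio was 0.06.

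Some limb markers also differed between the libraries, at the adjusted p alone. Of the 7, 0 were called at 1.5-fold, against 2.71% of all genes. At the adjusted p alone 4 were higher in replicate 2 and 1 was lower, where 8.96% of all genes were higher and 10.3% lower. The lower one was Tbx5, which marks forelimb, at 28.4 TPM in replicate 2 and 40.0 TPM in replicate 1 (adjusted p = 2.43e-32, exact binomial test). Pitx1, which marks hindlimb, was at 164 TPM in replicate 2 and 136 TPM in replicate 1 (adjusted p = 2.20e-26, exact binomial test), and Tbx4, also of hindlimb, at 35.1 TPM in replicate 2 and 30.6 TPM in replicate 1 (adjusted p = 1.55e-04, exact binomial test). Msx1 and Hoxd13 were the others that were higher in replicate 2, and Prrx1 and Prrx2 missed the threshold. The part of these differences in the mitochondrial ratios was not tested.

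mt-Rnr1 was 1.23-fold higher in replicate 2 (adjusted p = 3.22e-77, exact binomial test), and mt-Nd3 1.18-fold higher (adjusted p = 0.00116, exact binomial test). mt-Co2 was the gene with the lowest ratio, 0.773, followed by mt-Co3 at 0.787 and mt-Cytb at 0.811. For mt-Co2 the deposited posterior intervals overlapped, at 990.4 to 1522 TPM in replicate 2 and 1182 to 1833 TPM in replicate 1. Those of mt-Co3 overlapped as well, and those of mt-Cytb did not. For mt-Nd3 the intervals also overlapped, at 178 to 387 TPM in replicate 2 and 122 to 340.4 TPM in replicate 1. The 3 genes that missed the threshold were mt-Rnr2 at 0.996, mt-Atp8 at 1.02 and mt-Nd4l at 0.933.

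Pooling with the copies, a setting added after the data had been seen, brought the ratios of 5 of the 7 genes copied on chromosome 1 nearer to 1. In pooled TPM the ratio was 0.949 for mt-Co2, 0.954 for mt-Co3, 0.955 for mt-Atp6, 0.889 for mt-Co1 and 1.00 for mt-Nd3. For mt-Nd4l it was 0.917, farther from 1 than the 0.933 as deposited, and for mt-Nd4 it was 0.875 on both scales. The ratios of mt-Rnr1 (1.23) and mt-Cytb (0.811), which have no shared windows, were the same, and these were then the highest and the lowest of the 15. The median absolute log2 ratio of the 15 fell to 0.08 when pooled, against 0.14 as deposited. At the adjusted p alone, 11 of the 15 differed when pooled, 1 higher in replicate 2 and 10 lower, against 12 as deposited. mt-Nd3 was then no longer among them. Conversely, Gm10925 was among the called genes, 2.23-fold higher in replicate 2, while mt-Atp6 pooled with it had the ratio 0.955 given above. By posterior mean, Gm10925 had 19184 reads in replicate 2 and 19403 in replicate 1.

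**Figure D4:**
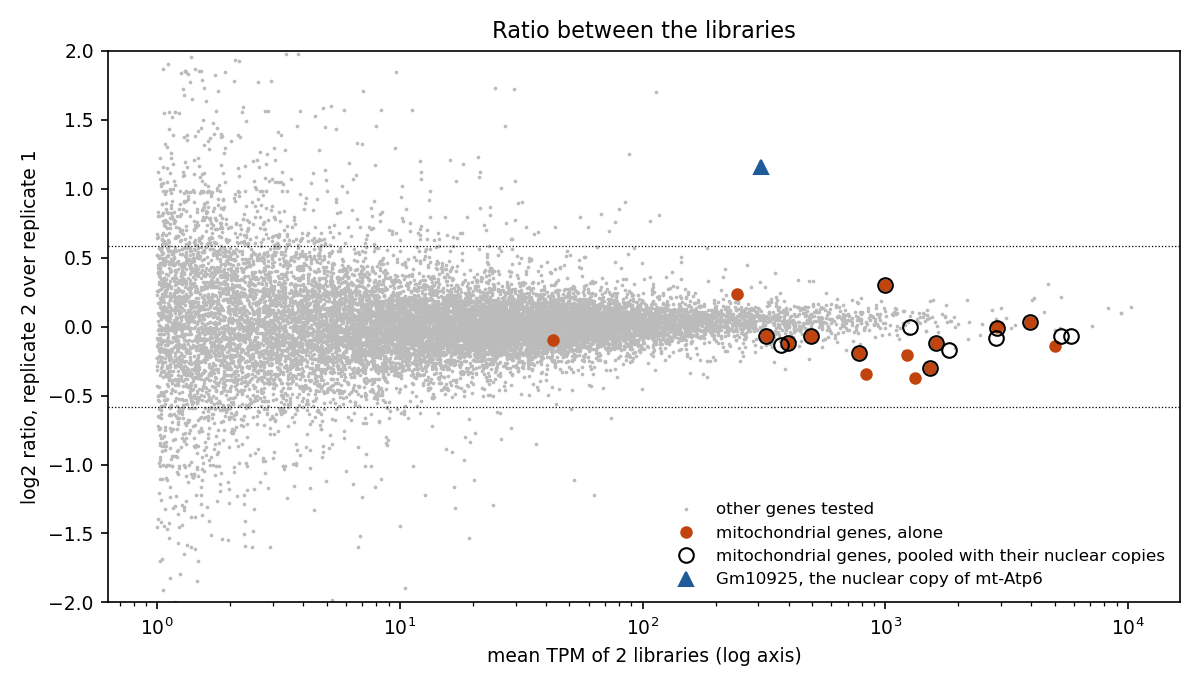
The log2 ratio of replicate 2 over replicate 1 against mean TPM (log axis) for all genes tested, with the 15 mitochondrial genes alone (filled) and pooled with copies (open) and the mt-Atp6 copy Gm10925 (triangle). Dotted lines mark 1.5-fold, and 215 other genes lie beyond the axis. All 15 mitochondrial genes lie within the dotted lines and Gm10925, at 1.16, lies outside.

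The proteins of these mRNAs assemble with nuclear-encoded subunits, and a list of 33 genes of such subunits was set beside them in TPM. All 33 were at 1 TPM or more in both libraries, from 53.0 for Atp5g2, 1 of 3 genes for the c subunit of ATP synthase, to 1596 for Atp5b, the catalytic beta subunit. The next below Atp5b was Cox6c, a small complex IV subunit, at 774 TPM. In complex I the median of the 7 mitochondrial genes, which is the level of mt-Nd6, was 381 TPM in replicate 2 and 414 TPM in replicate 1. That of 7 nuclear core subunit genes was 193 TPM in replicate 2 and 201 TPM in replicate 1. The mitochondrial median was thus 1.98-fold the nuclear one in replicate 2 and 2.07-fold in replicate 1, and with pooled levels 2.50-fold in replicate 2 and 2.52-fold in replicate 1. mt-Cytb stood 6.26-fold above the median of 4 nuclear complex III genes in replicate 2 and 8.14-fold in replicate 1. In complex IV the mitochondrial median was 2.01-fold that of 10 nuclear genes in replicate 2 and 2.45-fold in replicate 1, and with pooled levels 4.87-fold in replicate 2 and 5.43-fold in replicate 1. In complex V it was 7.52-fold that of 12 nuclear genes in replicate 2 and 8.30-fold in replicate 1, and with pooled levels 7.89-fold in replicate 2 and 8.48-fold in replicate 1.

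Single genes did not all keep to that direction. mt-Nd4l, as deposited at 43.0 ± 2.09 TPM, was below every nuclear core subunit gene of complex I, the lowest of which was Ndufs1, an iron-sulphur subunit, at 110.5 ± 2.44 TPM. Pooled, at 373 ± 22.8 TPM, mt-Nd4l was above the highest of them, Ndufv2 at 237 TPM. The complex V genes mt-Atp6 and mt-Atp8 were each above Atp5b. Between the libraries 0 of the 33 nuclear genes were called at 1.5-fold, against 2.71% of all genes. At the adjusted p alone 12 were higher in replicate 2 and 1 was lower, where 8.96% of all genes were higher and 10.3% lower.

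**Figure D5:**
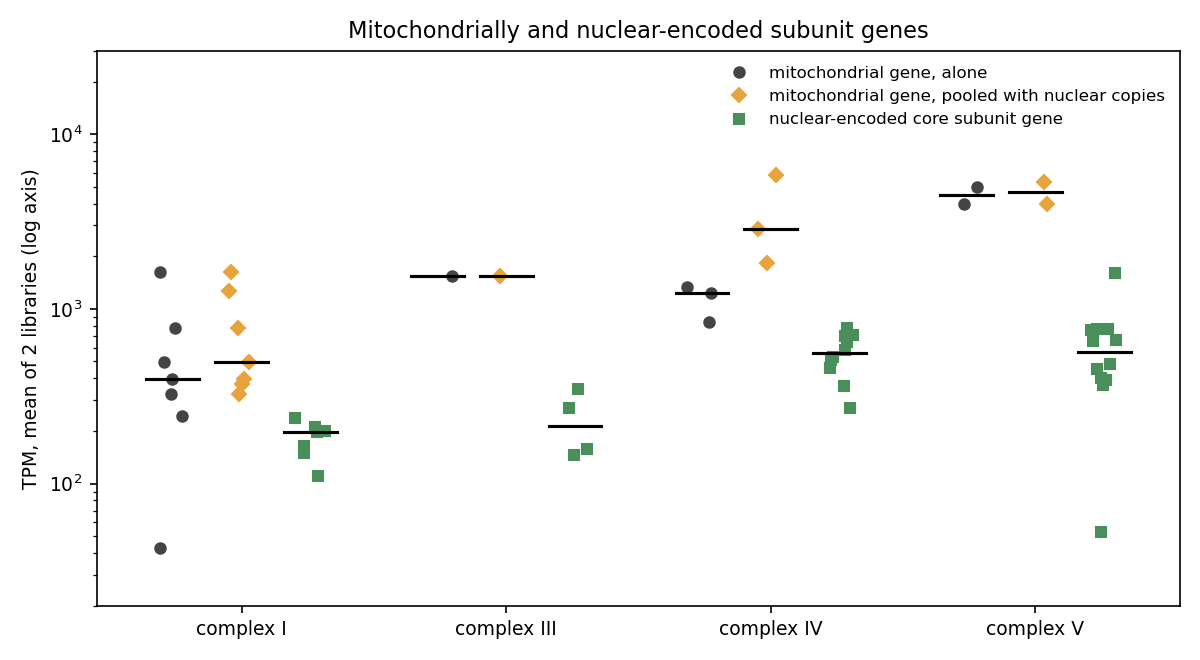
Mean TPM over both libraries (log axis) of each mitochondrial gene alone (circles) and pooled (diamonds) and of nuclear-encoded subunit genes (squares), by complex, with a black bar at the median. In complex I the mitochondrial genes run from 43.0 to 1619.9 TPM alone, and the nuclear genes from 110.5 to 237 TPM.

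The nuclear genes of mitochondrial RNA synthesis and decay were all detected, most of them at lower levels than the mitochondrial genes. In both libraries all 42 listed genes were above 1 TPM, and their median was 23.1 TPM. The highest was Slirp, a partner of the mRNA-stabilising protein Lrpprc, at 263 TPM in replicate 2 and 271 TPM in replicate 1. The next was Hsd17b10, a subunit of the enzyme that cuts tRNA 5′ ends, at 201 TPM in replicate 2 and 199 TPM in replicate 1. Polrmt, the mitochondrial RNA polymerase, was at 43.1 TPM in replicate 2 and 42.3 TPM in replicate 1, and Tfam, which packages the DNA and starts transcription, was at 73.2 TPM in replicate 2 and 77.7 TPM in replicate 1.

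Among the other roles, the highest replication gene was Ssbp1, the single-strand DNA binding protein, at 158 TPM, and the highest decay gene was Rexo2, an exonuclease for short RNA, at 76.2 TPM. Mtpap, the mitochondrial poly(A) polymerase, was at 34.1 TPM in replicate 2 and 34.3 TPM in replicate 1. The lowest of the list was Mterf1b, from the pair of mouse genes for a termination factor, at 2.59 TPM in replicate 2 and 2.40 TPM in replicate 1. Between the libraries 0 of the 42 were called at 1.5-fold, against 2.71% of all genes. At the adjusted p alone 19.2% of all genes and 1 of the 42 differed, namely Fastkd1, of a family of mitochondrial RNA-binding proteins, at 9.65 TPM in replicate 2 and 11.4 TPM in replicate 1 (adjusted p = 0.0221, exact binomial test).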

How the data were processed

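Both libraries are oligo-dT primed RNA-seq of embryonic limb. The authors estimated each gene's expected count and normalised it for effective length and depth to TPM and FPKM, and deposited all of them, with column names in RSEM's form per the file headers, for GENCODE M21 and, used as an alternative, M4 on mm10, per the labels. The aligner, software versions and strand setting remain not given in the sources used here. Reads without molecular identifiers are not independent molecules, so intervals cover counting error only.

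Expected counts were rounded and tested with an exact two-sided binomial test (scipy 1.17.1) with edgeR 4.0.16 TMM library sizes, adjusted by Benjamini-Hochberg over 15926 genes. Ratios used TPM plus 0.01. On counts simulated for these genes with counting error only, the test recovered known changes before use. That simulation held no further spread between libraries and no uncertainty in dividing shared reads. It therefore does not show how the test performs on these data. Copies were M21 transcripts outside the mitochondrial genome that aligned to it (blastn 2.17.0) at 90% identity or more over 100 nt or more and 50% of their length. Windows were matched exactly. No genome sequence was used: mitochondrial sequence came from the M21 transcripts of its 37 genes. The control region and nuclear copies without annotation were not analysed here. Adding the copies' reads over the gene's effective length (pooled TPM) was not in the planned design.

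The members and lists were chosen with earlier results of these data known. All 15 genes with reads are named. From each list the highest 2, the lowest and any called gene were named, and Polrmt, Tfam, Mtpap, Ndufs1, Ndufv2, limb markers beyond the rule, the leading gene of some roles and Fastkd1 were added after their values were seen. The listed symbol Prorp was not found. Alternatives are given in the closing section.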

Additional observations from a re-analysis of the deposited data

How the results depend on the processing

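No paired analysis was possible because there is 1 group. With 2 libraries, leaving out either leaves no test, and each then gives its own value. Of 82 values under alternatives, these included, 58 moved by no more than the SD between libraries or stayed within 1.5 times a count. This tally does not measure robustness. Leaving out 1 of 2 libraries cannot move a mean by more than that SD, and the tRNA share was 0 in every setting. The mitochondrial share of gene reads, 1.12%, was 1.496% with copies added, 2.17% as a share of TPM and 2.31% as a share of TPM without spike-ins. The coding share, 69.5%, was 82.1% in TPM, 79.7% in reads per nt and 77.2% with copies added, and the rRNA share, 30.5%, was 17.9%, 20.3% and 22.8% in the same settings. The light-strand share, 0.991%, was 0.996% with M4 and 1.83% in TPM. Of the 15 genes, 1 kept its place in the order of levels when the copies' TPM was added, 0 when their reads were pooled and 7 by posterior mean TPM, where mt-Atp8 stood above mt-Atp6. The fold of the highest over the lowest coding gene, 117, was 104 with M4, 149 per kb of full length, 18.1 with copies' TPM added, 18.0 pooled and 64.8 by posterior mean. The count of genes differing between the libraries was 0 in every setting run except without a fold minimum, where it was 12. The copies' share, 25.3%, was 23.8% by posterior mean counts. The mitochondrial over nuclear fold was 1.87 per kb and 2.41 with M4 in complex I and 6.81 per kb in complex V. Pooling, posterior means and a pseudocount of 1 were chosen after seeing the data. The cause of each shift was not tested. mt-Nd4l had the fewest reads of the 15, 163.82 in replicate 2 and 173.74 in replicate 1 as deposited. It shares 195 of its 198 windows with Gm10222, and its deposited posterior intervals were wide. They ran from 17.1 to 103 TPM in replicate 2 and from 11.2 to 127 TPM in replicate 1.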
